A study of Ovis aries with 13 samples.

Results

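Adrenergic receptors, angiotensin receptors, corticosteroid receptors and the 11-beta-hydroxysteroid dehydrogenases were followed in the left ventricle of sheep before and after birth. The probes were those whose gene symbol, in the array annotation or by RefSeq identifier, starts with ADRA, ADRB, AGTR, NR3C or HSD11B. This rule found 6 of the 854 genes named on the array, by 8 of its 15008 probes: ADRB1, ADRB3, AGTR1, NR3C1, HSD11B1 and HSD11B2. It found no probe for an ADRA gene, AGTR2 or NR3C2. A further 4 probes lie outside the rule but are described in the annotation as the angiotensin II subtype 2 receptor (symbol AT2, 2 probes) and the mineralocorticoid receptor (2 probes), and are given beside the others under those names.

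The study compared left ventricles of 6 fetuses at gestational day 142 (2 females and 4 males) with those of 7 newborn lambs at postnatal day 1 (4 females and 3 males), with 1 single-colour Agilent array for each animal. No treatment, transgene or mutation is named for either group, and no breed is given. Slide 1 held 4 of the fetuses and 3 of the newborns, and slide 2 the other 2 fetuses and 4 newborns. Of the 13 animals, 9 carry a number that they share with 1 or more others of their group, followed by a different letter, so that 4 numbers are shared. The labels do not say what a shared number means. The p-values measure only the spread between these animals.

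Heart cells receive the sympathetic transmitter noradrenaline and the adrenal hormone adrenaline through beta-adrenergic receptors, which raise cyclic AMP and with it the rate and force of contraction. Angiotensin II acts through a type 1 receptor, which constricts vessels and promotes growth, and a type 2 receptor that is typical of fetal tissues. Cortisol acts through the glucocorticoid receptor (NR3C1) and the mineralocorticoid receptor, and both act in the nucleus as transcription factors. The enzyme HSD11B1 regenerates cortisol from inactive cortisone inside the cell, and HSD11B2 inactivates cortisol. Circulating cortisol and catecholamines rise around birth in sheep.

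The results turn on a few 60-base probes, shown here because the probe decides which part of the transcript was measured. Each is written 5′ to 3′ as in the array annotation. The ADRB1 probe carries the only adrenergic signal that could be tested, and the AT2 probes are separate stretches of 1 transcript.
ADRB1: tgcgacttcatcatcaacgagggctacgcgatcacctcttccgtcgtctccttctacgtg
AT2 probe 1: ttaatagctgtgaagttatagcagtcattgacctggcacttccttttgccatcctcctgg
AT2 probe 2: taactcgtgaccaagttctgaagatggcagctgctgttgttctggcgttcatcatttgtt

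The HSD11B2 probes are almost the same oligonucleotide, which makes them a check on the precision of dim probes. Their first 30 bases are printed, with the base of probe 2 that probe 1 lacks in capitals.
HSD11B2 probe 1: gccacagggaggctacatactcacctgatt
HSD11B2 probe 2: Agccacagggaggctacatactcacctgat
They start 1 base apart on the transcript and share 59 identical bases. The AT2 probes start 114 bases apart, the HSD11B1 probes 122 bases and the mineralocorticoid receptor probes 86 bases, and within each of these pairs no base is shared.

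Levels are the log2 of the background-subtracted signal minus the 75th percentile of the same array, so that 0 marks that percentile. A probe was tested where it was well above background, by the scanner software's own flag, on at least 6 arrays. The 75th percentile lay 8.77 to 13.6 times above the median background of its array. From 62.7% (fetus 4) to 71.4% (fetus 6) of probes were well above background on an array. Arrays of 1 group correlated at 0.956 to 0.990 over probes. On the first principal component (36.8% of the variance) all 6 fetal arrays lay between -29.1 and -20.4, and 6 newborn arrays between 10.08 and 35.07. Newborn 6 lay at -8.997, between the groups.

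None of the 7 tested probes for the receptors and enzymes passed the comparison of newborn with fetal ventricles (limma, Benjamini-Hochberg adjusted p under 0.05), and none had an unadjusted p under 0.05. Over the whole array 23.1% of the 10257 tested probes passed, with 12% higher and 11.1% lower in newborns. The ranges of the groups were separate for 6.89% of tested probes and for none of the 7. The 4 AT2 and mineralocorticoid receptor probes were tested too, and none passed. These misses do not show equal expression, and the interval of each difference is given with it.

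The ADRB1 probe, for the beta-1 receptor that is the main adrenergic receptor of heart muscle, gave a low but measurable signal in every animal. It was well above background on all 13 arrays, with a processed signal of 36.02 to 84.68, which is 2.59 to 5.86 times the lowest signal called well above background on the same array. Fetal levels had a lowest value of -2.88, a median of -2.67 and a highest of -2.12, and newborn levels of -2.71, -2.33 and -2.07. The groups overlapped in part. Fetuses 4, 5 and 6 (-2.74, -2.88 and -2.72) lay below every newborn, although fetus 6 only just. Only newborn 1 was above every fetus, and 6 of 7 newborns were above the fetal median.

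The mean ADRB1 level was -2.59 ± 0.27 (SD, n = 6) in fetuses and -2.35 ± 0.23 (SD, n = 7) in newborns. The difference was 0.23 on the log2 scale (SE 0.138, 95% interval -0.06 to 0.53), with a limma p of 0.111 and an adjusted p of 0.231. As a fold this is 1.18, with an interval of 0.959 to 1.44. The difference was 0.33 within slide 1 and 0.29 within slide 2, and 0.31 with slide as a term (limma adjusted p = 0.0694). Its direction depended on how background was handled: where normexp was run with the local background of every spot, the difference was -0.0153. The SE there was 0.273, and the cause of the change in sign was not tested. All normexp settings also added 50 to every corrected signal, which compresses the log2 differences of dim probes.

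ADRB3, the beta-3 receptor best known from fat tissue, was not well above background on any of the 13 arrays. Its processed signal was 3.17 to 14.7, and 0.265 to 1.098 times the lowest signal called well above background on the same array. No difference between the groups was therefore tested, and the level is only bounded from above.

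**Figure D1:**
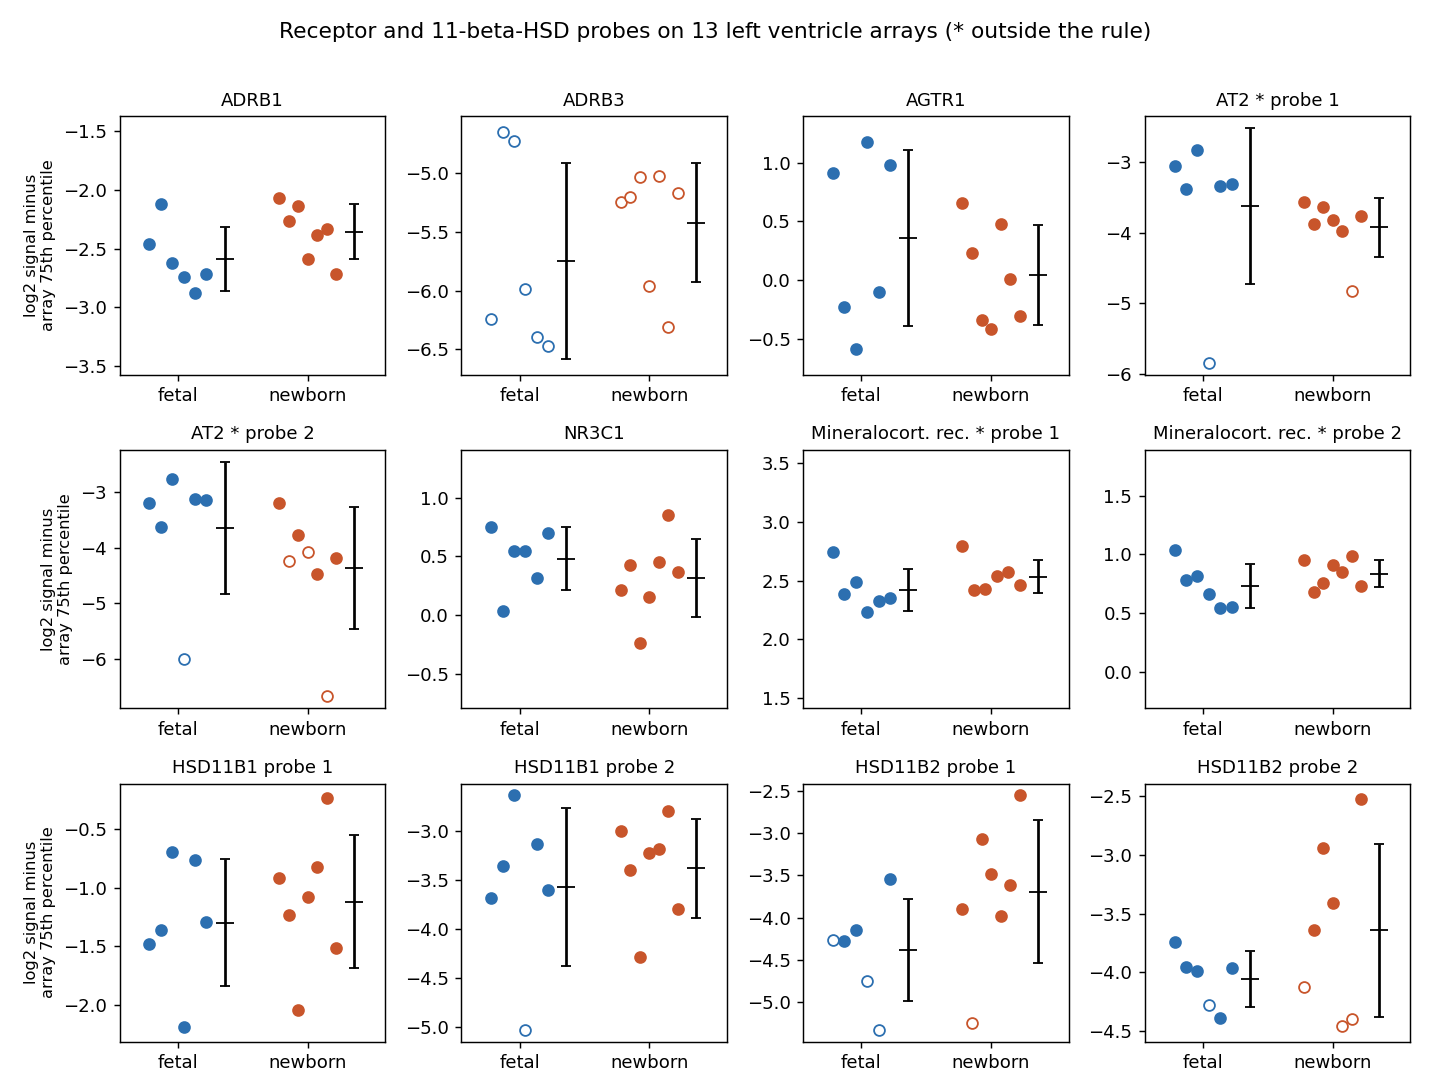
Level of each probe on each array (vertical axis, log2 signal minus the array's 75th percentile) for fetal (blue) and newborn (orange) ventricles. Filled points are well above background and open points are not, the bars are mean ± SD, and an asterisk marks probes outside the symbol rule. In every panel the groups overlap, and all ADRB3 points are open.

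AGTR1, the type 1 receptor through which angiotensin II constricts vessels, was well above background on all arrays and spread widely among the fetuses. Fetal levels had a lowest value of -0.59, a median of 0.41 and a highest of 1.18, and newborn levels of -0.42, 0.01 and 0.65. The newborn range lay within the fetal one: fetuses 1, 4 and 6 lay between 0.92 and 1.18, above every newborn, and fetuses 2, 3 and 5 lay between -0.59 and -0.10, of which fetus 3 was below every newborn. Means were 0.36 ± 0.75 (SD, n = 6) and 0.04 ± 0.42 (SD, n = 7). The difference of -0.32 (SE 0.294, 95% interval -0.95 to 0.31) had a limma adjusted p of 0.452, and its fold of 0.803 had an interval of 0.519 to 1.24. It was -0.14 within slide 1 and -0.50 within slide 2.

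High and low AGTR1 values among fetuses each occurred on both slides and in both sexes. With 2 fetuses on slide 2 and 2 female fetuses, a relation to slide or sex among the fetuses was not tested. Fetuses 1 and 4 of the high values were on slide 1 and fetus 6 was on slide 2, and the mean was 0.38 in female and 0.35 in male fetuses. The fetuses that share a number were on the same side: fetuses 1 and 6 had 0.92 and 0.98, and fetuses 3 and 5 had -0.59 and -0.10. The newborns that share a number were farther apart, with 0.65 and -0.30 in newborns 1 and 7 and 0.23, -0.42 and 0.48 in newborns 2, 4 and 5. Over both groups the median difference was 0.568 in 6 pairs with a shared number and 0.549 in 30 other pairs.

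The type 2 receptor, AT2, gave signals close to the detection limit. Probe 1 was well above background in 5 of 6 fetuses and 6 of 7 newborns, and probe 2 in 5 of 6 and 4 of 7. On probe 1 fetal levels had a lowest value of -5.84, a median of -3.32 and a highest of -2.82, and newborn levels of -4.82, -3.82 and -3.56. On both probes every newborn was below the fetal median, and fetus 4 was by far the lowest fetus.

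Over all arrays the difference in AT2 was -0.30 on probe 1 (SE 0.396, 95% interval -1.14 to 0.55, limma adjusted p = 0.610) and -0.73 on probe 2 (SE 0.555, 95% interval -1.92 to 0.45, limma adjusted p = 0.352). Fetus 4 decided whether probe 1 passed: without it the difference was -0.74 (limma adjusted p = 0.0185). Without the same fetus probe 2 gave -1.21 (limma adjusted p = 0.0688). Without newborn 6, the lowest newborn on both probes, the differences were -0.15 and -0.35. Within slide 1, which holds fetus 4, the probes gave 0.09 and 0.16, and within slide 2 they gave -0.78 and -1.73. The AT2 difference thus had no settled size in these arrays, and the values at fetus 4 and newborn 6 were not well above background.

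NR3C1, the glucocorticoid receptor, was measured well above background on every array. Fetal levels had a lowest value of 0.03, a median of 0.54 and a highest of 0.75, and newborn levels of -0.24, 0.36 and 0.85. Of the newborns, 6 of 7 lay below the fetal median, while newborn 6 was the highest of all 13 animals. Means were 0.48 ± 0.27 (SD, n = 6) and 0.32 ± 0.33 (SD, n = 7). The difference was -0.16 (SE 0.161, 95% interval -0.51 to 0.18, limma adjusted p = 0.489), a fold of 0.894 with an interval of 0.704 to 1.14. Without newborn 6 it was -0.25 (limma adjusted p = 0.211), and it was -0.33 within slide 1 and -0.05 within slide 2.

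The mineralocorticoid receptor, which binds cortisol as well as aldosterone, gave the narrowest intervals of the 11 tested receptor and enzyme probes. On probe 1 fetal levels had a lowest value of 2.24, a median of 2.37 and a highest of 2.74, and newborn levels of 2.42, 2.50 and 2.79 in the 6 newborns with a value. The spot of newborn 5 was an outlier by the scanner's flag and was left out. The difference was 0.11 on probe 1 (SE 0.107, limma adjusted p = 0.464) and 0.10 on probe 2 (SE 0.0998, limma adjusted p = 0.469). As folds, the 95% intervals were 0.922 to 1.27 and 0.927 to 1.25. Both probes thus gave nearly the same size and interval. The probe 1 difference was 0.08 within slide 1 and 0.18 within slide 2, and the probe 2 difference was -0.03 within slide 1 and 0.32 within slide 2.

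HSD11B1, which makes cortisol from cortisone, was well above background on all arrays by probe 1 and on all but fetus 4 by probe 2. On probe 1 fetal levels had a lowest value of -2.19, a median of -1.33 and a highest of -0.70, and newborn levels of -2.04, -1.08 and -0.23. The groups overlapped almost fully, with fetus 4 lowest and newborn 6 highest. The difference was 0.18 on probe 1 (SE 0.277, 95% interval -0.41 to 0.77, limma adjusted p = 0.670) and 0.19 on probe 2 (SE 0.326, 95% interval -0.51 to 0.89, limma adjusted p = 0.702). The fold of probe 1 was 1.13, with an interval of 0.751 to 1.70. The positive sign rested on fetus 4: without it the probes gave -0.0012 and -0.10. Within slide 1 they gave 0.03 and 0.12, and within slide 2 both gave 0.12.

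Animals with a shared number had close HSD11B1 levels. On probe 1 the median difference within a group was 0.217 over 6 pairs of animals with a shared number and 0.700 over 30 other pairs, and on probe 2 it was 0.190 and 0.604. NR3C1 gave 0.189 against 0.395, and AT2 gave 0.181 against 0.338 on probe 1 and 0.289 against 0.779 on probe 2. The order was the opposite for HSD11B2 (1.23 against 0.605 on probe 1 and 0.611 against 0.453 on probe 2) and for the mineralocorticoid receptor (0.243 against 0.127 and 0.224 against 0.142). For ADRB1 the values were nearly equal, 0.260 against 0.258. These pairs are too few and share animals, so the values are a description.

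HSD11B2, which inactivates cortisol and is annotated as HSD11K on the array, was dim, and more newborns than fetuses were detected only on probe 1. Probe 1 was well above background in 3 of 6 fetuses and 6 of 7 newborns, and probe 2 in 5 of 6 fetuses and 4 of 7 newborns. On probe 1 fetal levels had a lowest value of -5.33, a median of -4.28 and a highest of -3.54, and newborn levels of -5.25, -3.61 and -2.55. On probe 2 they were -4.39, -3.98 and -3.74 in fetuses and -4.46, -3.64 and -2.52 in newborns. Newborns 3 and 7 were the highest of all animals on both probes.

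The HSD11B2 difference was 0.69 on probe 1 (SE 0.366, 95% interval -0.09 to 1.48, limma adjusted p = 0.182) and 0.41 on probe 2 (SE 0.282, 95% interval -0.19 to 1.01, limma adjusted p = 0.304). The folds were 1.62, with an interval of 0.941 to 2.78, and 1.33, with an interval of 0.876 to 2.02. Probe 1 passed without newborn 2, whose signal there was not well above background (0.95, limma adjusted p = 0.0356). The same newborn was well above background on probe 2, at -3.64, so the oligonucleotides that share 59 bases disagreed on that animal. Within slide 1 the probes gave 0.29 and 0.42, and within slide 2 they gave 1.03 and 0.48. Where normexp was run with every spot's own background, and 50 added to every signal, the differences were 0.11 and 0.07. The added constant compresses the log2 differences of probes as dim as these, and its share in the smaller values was not tested.

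**Figure D2:**
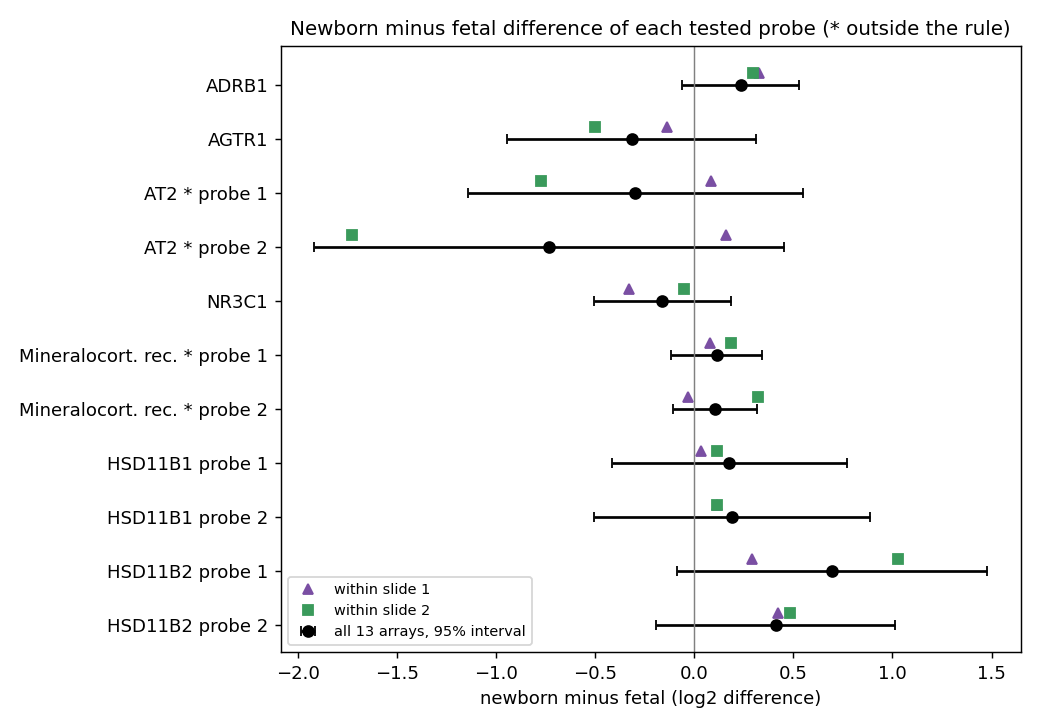
Newborn minus fetal difference (horizontal axis, log2) of each tested probe over all arrays, with its 95% interval (black), within slide 1 (triangles) and within slide 2 (squares). All 11 intervals include 0, that of the mineralocorticoid receptor is the narrowest, and the slides differ in sign for both AT2 probes and for mineralocorticoid receptor probe 2.

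How closely probes of 1 gene agree was read from the 4 genes with a pair of probes. The AT2 and HSD11B2 pairs were dim, while both mineralocorticoid receptor probes were well above background on all 13 arrays. Across arrays, the HSD11B1 probes had a Pearson r of 0.932 and a Spearman rho of 0.962 (permutation p = 2e-05 for both, the smallest that the permutations can give). The AT2 probes had an r of 0.910 and a rho of 0.962 (permutation p = 0.00048 and 2e-05). The mineralocorticoid receptor probes had an r of 0.855 and a rho of 0.909 over 12 arrays (permutation p = 0.00028 and 0.00014). All of these had a Benjamini-Hochberg adjusted p of 0.00064 or less over the 4 pairs of probes. For these 3 genes the ups and downs from animal to animal were thus seen by separate stretches of the transcript.

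The HSD11B2 probes, although nearly identical, had an r of 0.622 (permutation p = 0.022) and a rho of 0.440 (permutation p = 0.14), with the same values after adjustment. Without the 2 arrays farthest from the median of probe 1, fetus 5 and newborn 7, r fell to 0.299, so the relation rests on those arrays. Left out in the same way, the other pairs kept an r of 0.948, 0.913 and 0.818. Each pair shares the labelled RNA and the array, and therefore any error in them.

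**Figure D3:**
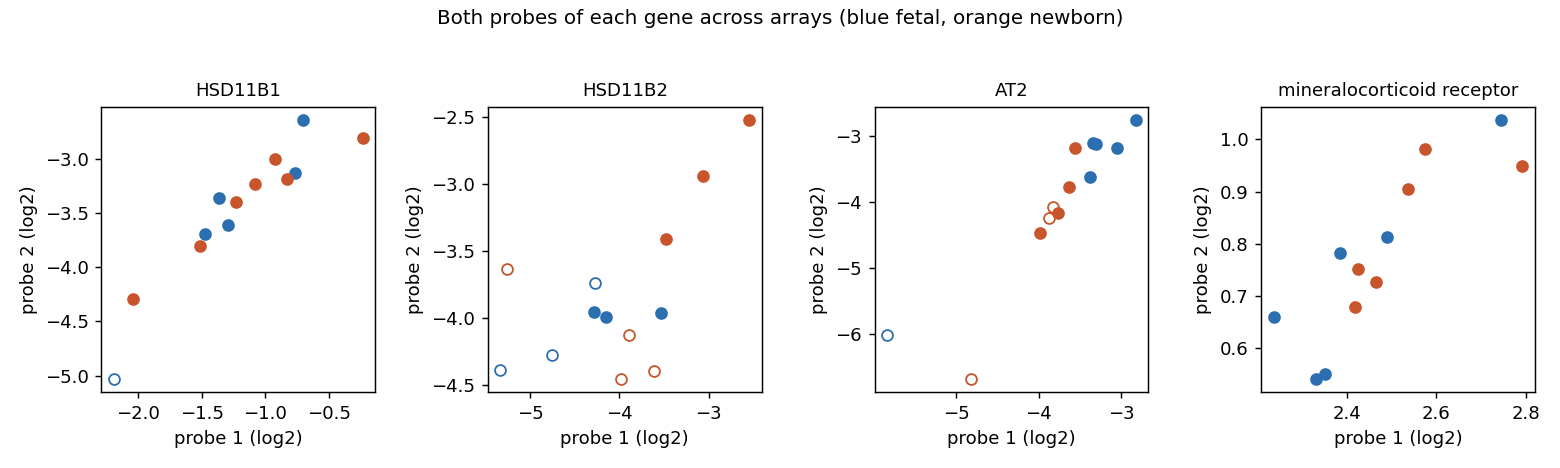
Level of probe 1 (horizontal axis) against probe 2 (vertical axis) of the same gene on each array, both as log2 signal minus the array's 75th percentile, with open points where either probe was not well above background. HSD11B1, AT2 and mineralocorticoid receptor points follow a rising line (r of 0.932, 0.910 and 0.855), while HSD11B2 points scatter (r of 0.622) apart from the highest newborns.

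Sex did not mark a difference in any of these genes that passed a test. None of the 7 probes passed for sex or for a difference between the sexes in the newborn minus fetal change, and none had an unadjusted p under 0.05 in either test. Over the whole array 0.00975% of probes passed for sex and 0% for the interaction (limma, 507 probes at an unadjusted p under 0.05). For ADRB1 the newborn minus fetal change was -0.02 in females and 0.43 in males, a difference of -0.45 (SE 0.280, limma adjusted p = 0.984). With 2 female fetuses, differences between the sexes were measured coarsely.

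The other genes of these pathways were sparsely covered by named probes. Of 557 named genes tested on the array, 134 passed (24.1%), 87 higher and 47 lower in newborns, with a median difference of 0.10. In beta-adrenergic signalling 4 of 28 listed genes had a tested probe and 0 of them passed (limma, 1 at an unadjusted p under 0.05), with a median difference of 0.09. RGS2, which dampens G-protein signalling, had a difference of 0.41 (SE 0.180, limma adjusted p = 0.112), which passed without fetus 4 (0.0406), and was -0.01 within slide 1. PRKACA, the catalytic subunit of the cyclic AMP dependent kinase, had 0.14 (SE 0.111, limma adjusted p = 0.388). Neuropeptide Y, which is released with noradrenaline from sympathetic nerves, was the only tested gene of catecholamine handling, at 0.07 (SE 0.233, limma adjusted p = 0.856).

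Of the genes listed for angiotensin formation and breakdown, 1 of 13 was tested and 0 passed (limma, 1 at an unadjusted p under 0.05). Cathepsin D (CTSD), a lysosomal protease able to cleave angiotensinogen, had a difference of -0.41 (SE 0.167, limma adjusted p = 0.0898). It passed with slide as a term (0.0438), with sex as a term (0.0400) and in the authors' processed values (0.0475). ACE, which forms angiotensin II, was on the array but not well above background on any array.

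Among genes of corticosteroid synthesis and its pituitary control, 2 of 18 were tested and 0 passed (limma, 1 at an unadjusted p under 0.05). POMC, the precursor of ACTH, had a difference of 0.23 (SE 0.104, limma adjusted p = 0.125), which passed without fetus 1 (0.0446). The steroid hydroxylase CYP17A1 had 0.27 (SE 0.176, limma adjusted p = 0.277). STAR, CYP11A1, CYP11B1 and the ACTH receptor MC2R were not well above background on any array. HSP90AA1, the chaperone that holds unbound corticosteroid receptors, had 0.34 (SE 0.133, limma adjusted p = 0.0764). It passed without newborn 1 (0.0387) and without newborn 6 (0.0181).

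Genes known to respond to corticosteroids were the list with the most members that passed. Of 27 listed, 6 were tested and 3 passed, all 3 lower in newborns, beside the 11.1% of all probes that were lower, and the median difference over the 6 was -0.41. The lists were chosen with earlier results of these data known and hold unlike numbers of tested genes, so this count is a description. NFKBIA, the inhibitor of NF-kappa-B that glucocorticoids induce in many cells, fell by 1.08 on the log2 scale (SE 0.197, limma adjusted p = 0.00246), from a mean of 2.24 to 1.17. Its fetal levels of 1.87 to 2.71 lay above its newborn levels of 0.63 to 1.79. PTGDS, a prostaglandin D synthase, fell by 0.79 (SE 0.153, limma adjusted p = 0.00336), from 3.74 to 2.95, again with ranges that did not overlap. CEBPB, a transcription factor of inflammation and metabolism named here after its value was seen, fell by 0.53 (SE 0.136, limma adjusted p = 0.0132). The members that passed also respond to inflammatory signals, and whether either kind of signal bears on their fall was not tested. Of the rest, FOS had 0.72 (SE 0.309, limma adjusted p = 0.107), and ATP1B1 and PCK1 did not pass. With normexp on the local background of every spot none of the 3 passed, within slide 1 only NFKBIA passed, and within slide 2 none did. In those settings the differences were -0.97, -1.31 and -0.81 for NFKBIA and -0.72, -0.93 and -0.68 for PTGDS, and CEBPB had -0.19, -0.60 and -0.51. With normexp on the median background of each array CEBPB, a dim probe, did not pass (limma adjusted p = 0.334). That setting also adds 50 to every signal, and its share in this was not tested.

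Among other hormone receptors and ligands of the circulation, 8 of 38 were tested and 1 passed. Endothelin-1 (EDN1), a vasoconstrictor peptide of endothelium, fell by 0.81 (SE 0.260, limma adjusted p = 0.0373), from -2.95 to -3.76. This call was lost with slide (0.0580), sex (0.0547) or the animal number (0.0508) in the fit, with the replicate block (0.0902), without a filter on dim probes (0.0640), with normexp of either kind and within either slide, and without any of 9 single animals, fetuses 1, 2, 3, 4 and 6 and newborns 1, 3, 5 and 7 (0.0510 to 0.0838). GUCY1B1, a subunit of the nitric oxide receptor, had 0.33 (SE 0.148, limma adjusted p = 0.121).

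**Figure D4:**
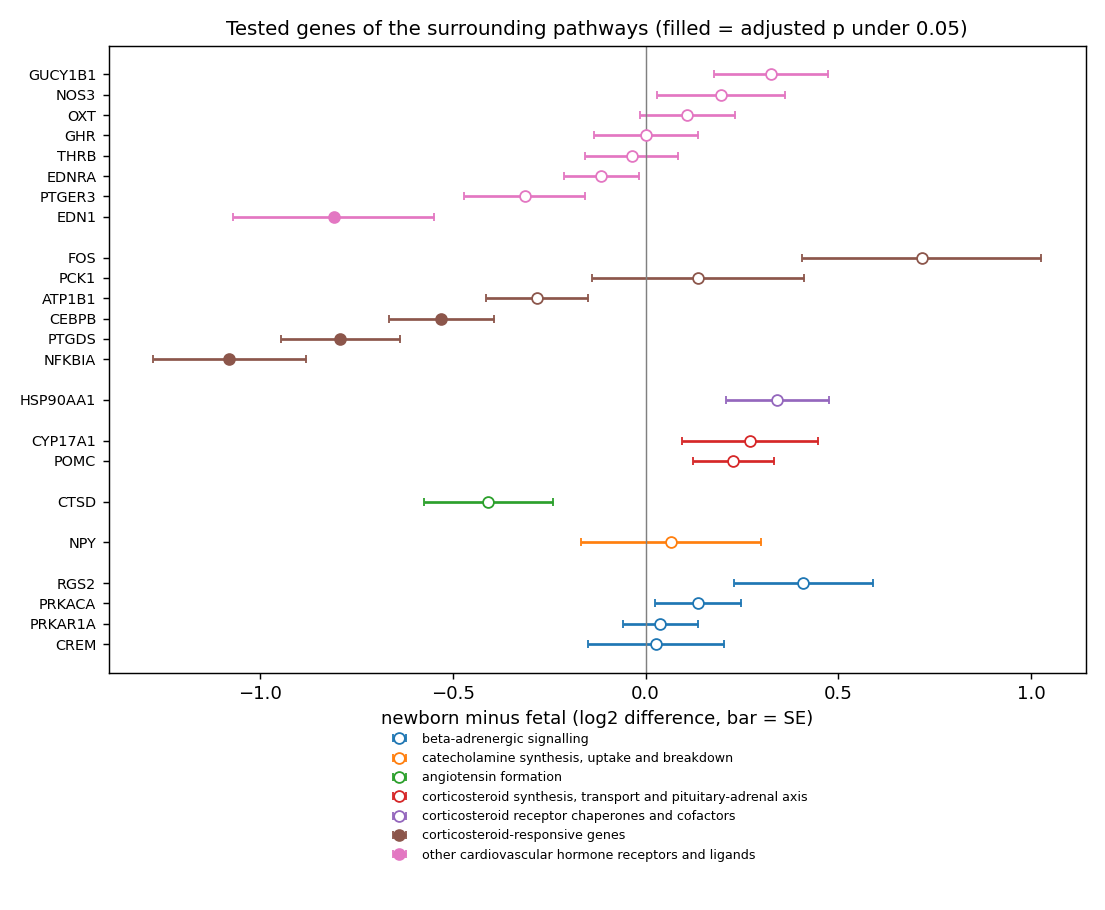
Newborn minus fetal difference (horizontal axis, log2) with its SE for the tested genes reported from the surrounding pathways, grouped and coloured by list, 1 probe for each gene. Filled points passed (limma adjusted p under 0.05): NFKBIA, PTGDS, CEBPB and EDN1, all 4 lower in newborns.

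In bulk ventricle fewer cells of a type and less RNA for each cell cannot be told apart, and marker genes of several cell types moved with age. Both tested lymphocyte markers and both erythroid markers were lower in newborns. Of these, CD3D and AHSP were well above background in only 2 of 7 newborns, and with normexp on the median background of each array their differences of -1.63 and -1.73 became -0.31 and -0.30. The 50 added to every signal in that setting compresses the log2 differences of such dim probes, and its share in the smaller values was not tested. AHSP passed narrowly (limma adjusted p = 0.0447) and did not pass without any 1 of 9 animals, fetuses 2, 3, 4 and 5 and newborns 1, 2, 3, 6 and 7 (0.0583 to 0.103). Over the lymphocyte list the mean level was -3.40 to -1.88 in fetuses and -5.57 to -4.00 in newborns, and over the erythroid list 0.21 to 2.86 and -1.04 to 0.66. Both macrophage markers were higher (-2.13 to -1.60 in fetuses and -1.53 to -0.65 in newborns), as was the 1 smooth muscle marker (1.86 to 2.84 and 3.29 to 6.39). The macrophage marker CD14 had a difference of 0.66, with 0.29 within slide 1 and 1.08 within slide 2. It had 0.28 with normexp on the median background of each array and 0.13 on that of each spot. CD14 did not pass within slide 1 or slide 2 (limma adjusted p = 0.349 and 0.143), with the spot background or with the replicate block (0.0685). The other macrophage marker, FCER1G, did not pass within either slide (limma adjusted p = 0.105 and 0.227). Nor did the smooth muscle marker, CNN1 (0.0895 and 0.122). Among endothelial markers 2 of 4 were lower, as were 2 of 4 for adipocytes and 1 of 3 for fibroblasts, with overlapping ranges. Of these, KDR, PPARG and COL3A1 each failed to pass with some single animals left out (limma adjusted p of up to 0.0960), KDR without fetus 1 or fetus 2 only. The skeletal muscle marker TNNC2 varied widely in both groups (-0.72 to 3.84 and -0.46 to 5.30) and did not pass (limma adjusted p = 0.551). Myoglobin (MB), the only one of 14 cardiomyocyte markers with a named probe, lay at 8.74 to 9.20 in fetuses and 8.02 to 9.12 in newborns and did not pass (limma adjusted p = 0.139). The part of these markers in the results above was not tested.

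The named genes whose levels followed ADRB1 most closely over the 13 arrays were FHL1, TGFB2, SCD, HRH2 and DNMT1. FHL1, a LIM-domain protein of striated muscle, had a Pearson r of 0.714 with ADRB1, and TGFB2, a growth factor of the transforming growth factor beta family, had 0.697. The correlations of SCD, a fatty acid desaturase, HRH2, the histamine H2 receptor, and DNMT1, the maintenance DNA methyltransferase, were 0.629, 0.603 and 0.586. After the group means were taken out, TGFB2 stood highest with 0.883, FHL1 had 0.620 and the rest had 0.423 to 0.506. Without fetus 5 and newborn 1, the arrays farthest from the ADRB1 median, the 5 values were 0.662, 0.699, 0.475, 0.655 and 0.478. These genes were picked for their r among 557 tested, on arrays that share slides and scaling, so the values are a description.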

How the data were processed

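Total RNA of each ventricle was labelled with 1 dye and hybridised to 1 Agilent array. Spot intensities were extracted with Agilent Feature Extraction 10.1.1.1, per the file headers. The authors deposited processed intensities (background-subtracted, linear scale) and log2 values in a series matrix of unstated scaling, which served as an alternative. The level was log2 of the processed intensity minus the array's 75th percentile. Control spots and outlier spots were left out and spots of a probe averaged. Of 15008 probes, 10257 were well above background on at least 6 arrays and were tested with limma 3.58.1 in R 4.3.3 (lmFit and eBayes, newborn against fetal, 95% intervals, threshold 0.05 after Benjamini-Hochberg). The array number limits the precision. Symbols came from the array annotation and, by RefSeq identifier, from a RefSeq gene table; 1370 probes had 1 symbol, 15 had several and 13623 had none. A gene was represented by its brightest tested probe. Named were all members, the 2 genes with the smallest p of each pathway list, and the 5 named genes with the highest r with ADRB1; FOS, ATP1B1, PCK1, CEBPB and the untested pathway genes and cell type markers were named outside this rule, after their values were seen. Some genes are not reported here, and list counts leave them out. Members and lists were chosen with earlier results of these data known. Replicate numbers shared by the groups did not pair the animals. Permutation tests of probe pairs were two-sided (100000 resamples). The fit was tested on simulated data. Alternatives covered background (normexp with 50 added to every signal), scaling, filter, slide, sex, replicate block, animal number and each array left out.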

Additional observations from a re-analysis of the deposited data

Results flagged for a closer look

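Of 22 sets of values (each tested probe in each group), 4 had an animal far from the others by Dixon's criterion. By chance the criterion flags about 1 in 20 independent sets. Probes of 1 transcript share their animals, so these sets are not independent and the count cannot be set against chance. All 4 were low values of AT2, the angiotensin II type 2 receptor. In fetus 4 the gap to the next fetus was 0.817 of the fetal range on probe 1 (-5.84 against -3.38) and 0.734 on probe 2 (-6.01 against -3.63). In newborn 6 it was 0.668 of the newborn range on probe 1 (-4.82 against -3.98) and 0.635 on probe 2 (-6.68 against -4.46). Separate probes of the transcript thus placed the same animals lowest, and none of these 4 values was well above background, so their depth below the others is not measured. Fetus 4 was also the lowest fetus on both HSD11B1 probes, at -2.19 and -5.03. Its array had the smallest share of probes well above background of all arrays, 62.7%, and the lowest 75th percentile of the fetal arrays. That percentile stood 10.7 times above the median background, within the range of the other fetal arrays. Whether the array or the animal gave the low values was not tested.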

How the results depend on the processing

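The count of all tested probes that passed, 2366 (1227 higher and 1139 lower in newborns), was 50 (22 and 28) with the background of each spot modelled, 356 (191 and 165) within slide 1, 23 (11 and 12) within slide 2 and 1326 (643 and 683) with the replicate block. Leaving out single arrays gave 1726 to 3116 (884 to 1596 higher, 842 to 1520 lower). The within-slide fits have fewer animals, and the cause of the fall with modelled spot background was not tested. No receptor or enzyme probe passed with the replicate block, where fetal and newborn arrays with the same replicate number correlated at -0.0697 to 0.0532. Animals of 1 group that share an animal number had a consensus correlation of 0.178. With that number as a random block, 1717 of all tested probes passed (862 higher and 855 lower in newborns). The count of the 7 receptor and enzyme probes that passed (all, and higher in newborns) was 0 to 1 over left-out arrays, with 1 (HSD11B2 probe 1) without newborn 2. The count of corticosteroid-responsive genes lower in newborns, 3, was 0 with spot background modelled, 1 within slide 1 and 0 within slide 2.

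Differences between the ages changed sign as follows, and the cause was not tested. With spot background modelled ADRB1 gave -0.0153 and HSD11B1 probe 2 gave -0.0368. Within slide 1 AT2 gave 0.0863 and 0.162, mineralocorticoid receptor probe 2 gave -0.0306, RGS2 gave -0.0106 and NPY gave -0.14. NPY gave -0.0134 with the replicate block. Over left-out arrays HSD11B1 ranged from -0.0012 to 0.33 and from -0.10 to 0.38, and NPY from -0.0134 to 0.22.

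The difference between the sexes in the change, with no probe passing in any setting, turned sign for HSD11B1 (-0.0626 and -0.222) and AT2 probe 2 (-0.0269) with spot background modelled, and for HSD11B2 probe 2 (0.000297) and AT2 probe 1 (0.00654) with quantile normalization. Over left-out arrays it ranged from -0.49 to 0.71 for AGTR1, -0.45 to 0.60 and -0.36 to 1.28 for AT2, -0.30 to 0.60 and -0.35 to 0.52 for HSD11B1, -0.85 to 0.24 and -0.48 to 0.25 for HSD11B2 and -0.21 to 0.46 for NR3C1. Age differences of AGTR1 (-0.51 to -0.14), NR3C1 (-0.33 to -0.05) and HSD11B2 (0.11 to 1.03 and 0.07 to 0.55) kept their sign in all settings run. ADRB3, AT2 and HSD11B2 were limited by signal over background, and probes filtered out under the strict filter gave no value there.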
